A study of Mus musculus with 3 samples.

Results

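Serine, one-carbon and asparagine synthesis genes were followed in the mouse melanoma line B16 over a course of 0, 2 and 4 h with 1 µg/ml doxorubicin, an anticancer drug that inserts between DNA bases and traps topoisomerase II on DNA. The set was fixed by name and holds 10 enzyme genes linked to the transcription factor ATF4. All probe sets annotated to 1 of these genes alone were taken: 25 probe sets of 9 genes, among 9723 genes that passed the expression filter and 45101 probe sets on the array. All 25 passed that filter, a mean log2 signal over the 3 arrays of at least the log2 of 200 after scaling each array to the same trimmed mean. The brightest passing probe set stands for its gene below, and signals of different probe sets do not compare amounts of mRNA. Pycr1, a pyrroline-5-carboxylate reductase of proline synthesis, has no probe set in the annotation used here. A further 2 probe sets list Phgdh beside another locus and were left out.

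Each time point was 1 Affymetrix Mouse430_2 array of total RNA, so the series has 3 arrays and no replicates. All cultures grew in DMEM with serum and received the drug, with 0 h as the starting point, and there was no untreated culture at 2 h or 4 h. Drug, time in culture and handling therefore cannot be told apart. The description and source fields also name bone marrow-derived macrophages and an unexplained "ET" treatment. Pigment cell markers reached a signal of 200 in 13, 11 and 12 of 13 genes at 0, 2 and 4 h, with a summed signal of 183348, 186311 and 189759 and a median of 8401, 2640 and 1638. The median was lower at 2 h and 4 h than at 0 h while the sum was not. Macrophage markers reached it in 5, 4 and 4 of 13 genes, with a summed signal of 4010, 4798 and 5412 and a median of 189, 128 and 146. Their part in the results was not tested.

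Serine is made from a glycolytic intermediate in 3 steps, by PHGDH, PSAT1 and PSPH. Serine hydroxymethyltransferases split it into glycine and a carbon unit carried by folate, which the mitochondrial enzymes MTHFD2 and MTHFD1L pass on as formate for purine and thymidylate synthesis. ATF4 is the transcription factor of the integrated stress response, is translated more when general translation is reduced, and activates many of these genes through C/EBP-ATF response elements.

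No gene of the set differed 2-fold in signal from 0 h. At 4 h, 0 of 9 genes were at least 2-fold higher, against 2.32% of all 9723 genes, and 0 of 9 at least 2-fold lower, against 14.4%. At 2 h both counts were again 0 of 9, against 1.41% of all genes higher and 5.69% lower. On the probe set that stands for each gene, all 9 had a higher signal at 4 h than at 0 h, by 1.15- to 1.67-fold, against 46.1% of all genes. At 2 h, 8 of 9 were above 0 h, against 49.0% of all genes. The median log2 ratio of the 9 genes was 0.29 at 2 h and 0.29 at 4 h, while that of all genes was -0.01 and -0.07. Brighter genes had higher ratios in general. Among the 3288 genes at least as bright as the dimmest of the 9, 69.3% were higher at 2 h and 67.7% at 4 h. Their medians were 0.15 and 0.22. With 1 array per time, no test was possible, and these values describe 3 arrays. The direction at 4 h also depended on how arrays were scaled. With equal medians 9 of 9 genes stayed above 0 h, with quantile normalization 5 of 9 and with scaling to the hybridization spike-ins 3 of 9. The median of all genes moved too, to 0.24, 0.05 and -0.39 in the same order. Above that median lay 9, 5 and 9 of the 9 genes. Equal medians and spike-ins use 1 factor per array, so their counts above it could hardly differ from the main scaling. In bulk RNA, fewer cells of a type and less RNA per cell cannot be told apart.

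**Figure D1:**
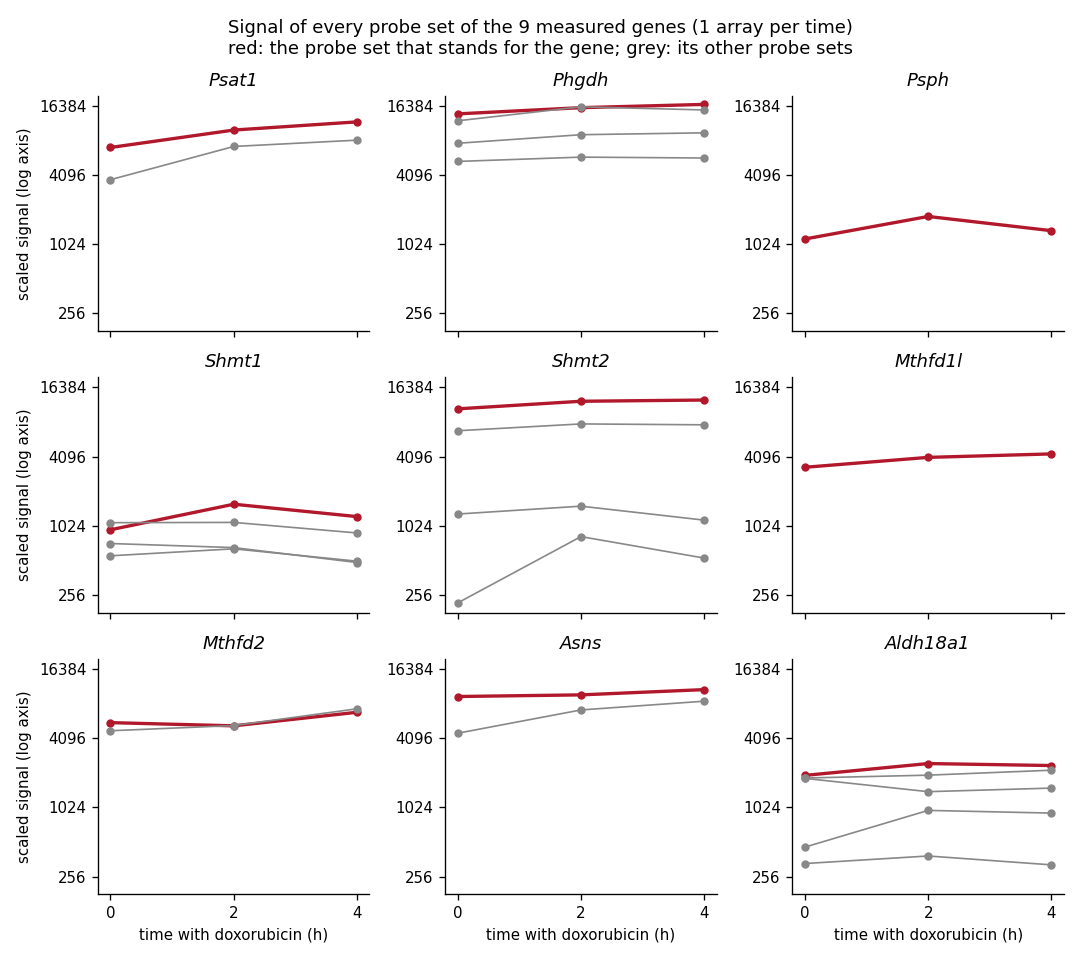
Scaled signal (log axis) of each probe set of the 9 measured genes at 0, 2 and 4 h, 1 array per time, with the probe set that stands for the gene in red and the others in grey. Psat1 is lowest at 0 h and highest at 4 h on both probe sets, Psph and the red probe set of Shmt1 are highest at 2 h, and the dimmest of the 4 probe sets of Shmt2 (218, 824 and 536) runs apart from the red one.

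Promoter windows of the set were searched because ATF4 acts through a known element. The core letters TGATGNAA were looked for on both strands of the RefSeq windows from 250 bases before to 50 after each gene's start (build GRCm38.p6), and CACGTG, the E-box bound by MYC, was looked for in the same windows. The ATF4 core was found in Asns and in Pycr1, and so in 1 of the 9 measured genes, against 2.44% of 7937 passing genes with a window and 4.51% of all 27025 genes. The E-box was found in Aldh18a1, 1 of the 9, against 12.1% of passing genes. Shown are the 250 bases before the start for these 2 measured genes with a match and for Psat1, the gene with the highest log2 ratio at 4 h. Capitals mark the matches, the ATF4 core from 23 bases before the Asns start and the E-box from 59 bases before the Aldh18a1 start. The coordinates are chr6:7693210-7693459, minus strand, for Asns, chr19:40588464-40588713, minus strand, for Aldh18a1 and chr19:15925060-15925309, minus strand, for Psat1. A second Psat1 start, with the 250 bases before it at chr19:15924623-15924872, minus strand, was searched as well, without a match, and is not shown.
Asns: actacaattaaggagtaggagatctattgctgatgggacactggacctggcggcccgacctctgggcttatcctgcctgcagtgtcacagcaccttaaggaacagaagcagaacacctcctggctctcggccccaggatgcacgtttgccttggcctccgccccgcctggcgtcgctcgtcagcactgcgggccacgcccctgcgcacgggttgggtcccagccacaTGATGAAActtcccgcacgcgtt
Aldh18a1: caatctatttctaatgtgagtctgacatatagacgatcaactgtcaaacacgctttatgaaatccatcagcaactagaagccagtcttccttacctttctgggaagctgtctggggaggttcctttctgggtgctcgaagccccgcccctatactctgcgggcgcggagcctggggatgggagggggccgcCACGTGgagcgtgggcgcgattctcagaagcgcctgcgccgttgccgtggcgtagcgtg
Psat1: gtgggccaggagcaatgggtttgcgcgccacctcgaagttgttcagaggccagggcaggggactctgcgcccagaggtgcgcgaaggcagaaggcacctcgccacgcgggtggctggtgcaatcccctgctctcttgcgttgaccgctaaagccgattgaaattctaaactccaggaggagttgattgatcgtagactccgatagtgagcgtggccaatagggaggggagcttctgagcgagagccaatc
No match says only that these letters are not in the window.

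Of the serine synthesis genes, Psat1 stood furthest from 0 h at 4 h. Psat1, the phosphoserine aminotransferase, had signals of 7087, 10051 and 11838 at 0, 2 and 4 h on its brighter probe set. Its dimmer probe set had 3719, 7234 and 8209. Both probe sets were lowest at 0 h and highest at 4 h. The log2 ratios were 0.50 ± 0.32 at 2 h and 0.74 ± 0.28 at 4 h (SD over 2 probe sets), and the dimmer probe set was past 2-fold at 4 h, at 1.14. At 4 h Psat1 lay above 93.7% of all genes.

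Phgdh, the dehydrogenase that opens the pathway, had signals of 13891, 15737 and 16794 at 0, 2 and 4 h. The log2 ratios were 0.18 ± 0.12 and 0.27 ± 0.10 (SD over 4 probe sets), and all 4 probe sets lay above 0 h at both times. Their 4 h ratios ran from 0.10 to 0.31, the narrowest range among the genes with several probe sets. Psph, the phosphatase of the last step, had signals of 1134, 1781 and 1340 on its 1 probe set. It was highest at 2 h, with log2 ratios of 0.65 at 2 h and 0.24 at 4 h, and had no second probe set as a check.

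The serine hydroxymethyltransferases gave readings that depended on the probe set. Shmt1, the cytosolic enzyme, had signals of 945, 1577 and 1230 on the probe set that stands for it. This gave 0.74 ± 0.38 at 2 h and 0.38 ± 0.39 at 4 h on the log2 scale (SD over 4 probe sets). That probe set was the 1 of 4 above 0 h at 4 h. The other 3 had 2 h ratios of 0.20, 0.01 and -0.12, and 4 h ratios of -0.16, -0.30 and -0.55 in the same order. The mean over all 4 was 0.21 at 2 h and -0.16 at 4 h. Between 2 h and 4 h the 4 probe sets ran together, with log2 ratios from -0.43 to -0.30, so all were lower at 4 h than at 2 h.

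Shmt2, the mitochondrial enzyme, had signals of 10644, 12391 and 12699, and a second bright probe set had 6867, 7870 and 7732. These 2 had log2 ratios of 0.25 and 0.17 at 4 h. The 2 dimmer ones disagreed with each other: 1 had signals of 218, 824 and 536, past 2-fold at both times (log2 ratios 1.92 and 1.30), and the other had 1295, 1516 and 1146 (0.23 and -0.18). The SD over the 4 probe sets was 0.85 at 2 h and 0.63 at 4 h, larger than the log2 ratio of the gene.

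Mthfd2, the mitochondrial methylenetetrahydrofolate dehydrogenase, was the 1 gene of the 9 whose signal at 2 h lay below that at 0 h, on the brighter of its probe sets. Its probe sets had signals of 5596, 5249 and 6888, and of 4757, 5277 and 7385. The log2 ratio was -0.09 ± 0.17 at 2 h and 0.30 ± 0.24 at 4 h (SD over 2 probe sets), and 0.39 ± 0.07 for 4 h against 2 h. Mthfd2 lay above 88.2% of all genes in that last comparison. Mthfd1l, the mitochondrial formyltetrahydrofolate synthetase, had signals of 3303, 4028 and 4317 on 1 probe set, with log2 ratios of 0.29 and 0.39.

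Asns, asparagine synthetase, had signals of 9442, 9756 and 10842 on the probe set that stands for it and of 4526, 7215 and 8597 on the other. Both were lowest at 0 h and highest at 4 h, but the sizes differed. The brighter gave log2 ratios of 0.05 and 0.20 and the other 0.67 and 0.93, an SD of 0.44 at 2 h and 0.51 at 4 h over 2 probe sets. Aldh18a1, the pyrroline-5-carboxylate synthase of proline synthesis, had signals of 1945, 2466 and 2370. Its log2 ratios were 0.34 ± 0.52 and 0.29 ± 0.48 (SD over 5 probe sets), with 4 of 5 above 0 h at 2 h and 3 of 5 at 4 h. The range over its probe sets was -0.38 to 1.06 at 2 h and -0.28 to 0.98 at 4 h.

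**Figure D2:**
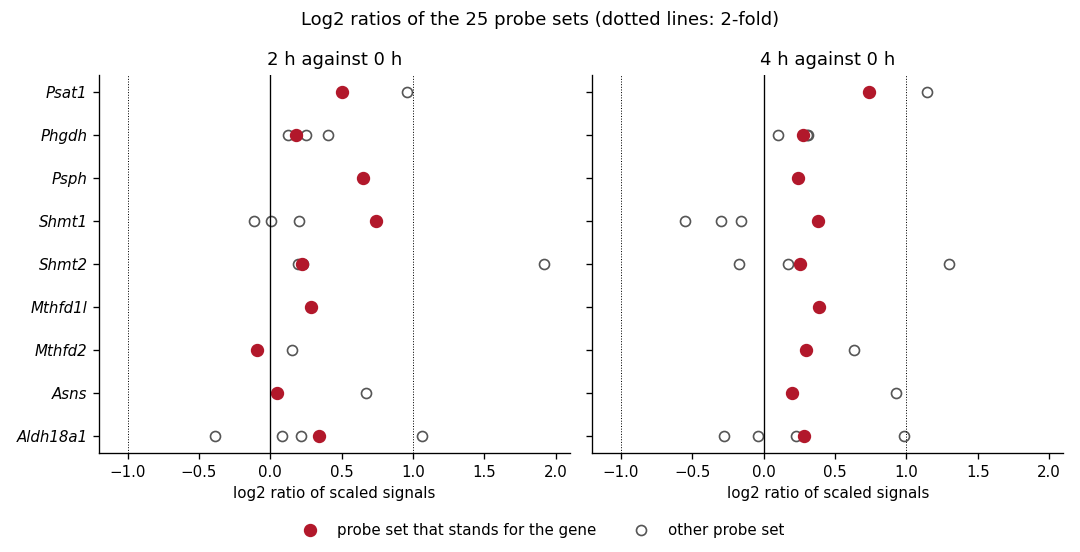
Log2 ratio of scaled signals for each of the 25 probe sets, 2 h against 0 h and 4 h against 0 h, with filled points for the probe set that stands for the gene, open points for the others and dotted lines at 2-fold. Phgdh points lie close together, from 0.10 to 0.31 at 4 h, and those of Shmt2 reach from -0.18 to 1.30.

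Counted by probe set, 22 of 25 were higher at 2 h than at 0 h, against 49.2% of all 15785 passing probe sets, and 19 of 25 at 4 h, against 47.3%. At least 2-fold higher were 2 of 25 at 2 h, against 1.66%, and 2 of 25 at 4 h, against 2.74%. None of the 25 was at least 2-fold lower at either time, against 5.68% and 13.9%. Probe sets of a gene share their target and are not replicates. The sign was shared by every probe set in 4 of the 7 genes with several at 2 h, and in 4 at 4 h. No share over all genes stands beside these counts, so whether 4 of 7 is usual on these arrays was not tested.

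For 4 h against 2 h, 0 of 9 genes were at least 2-fold higher, against 0.843% of all genes, and 0 of 9 at least 2-fold lower, against 5.41%. At any size, 6 of 9 were higher, against 43.8% of all genes. Mthfd2 had the highest log2 ratio, followed by Psat1 at 0.24 ± 0.04 and Asns at 0.15 ± 0.07 (SD over 2 probe sets each). Psph and Shmt1 had the lowest, at -0.41 and -0.36 ± 0.05 (SD over 4 probe sets). Across the 23 probe sets of the 7 genes with several, the SD between probe sets of a gene was 0.49 at 2 h against 0 h, 0.43 at 4 h against 0 h and 0.16 at 4 h against 2 h. Over all genes with several it was 0.40, 0.48 and 0.38 in the same order, and 0.26, 0.31 and 0.23 among the brightest 2492 probe sets. The step between 2 h and 4 h was thus the one on which the probe sets of these genes differed least. Signals ordered 0 h below 2 h below 4 h were found in 5 of 9 genes, against 23.7% of all genes, namely Psat1, Phgdh, Shmt2, Mthfd1l and Asns, and in 10 of 25 probe sets, against 24.3%. For Phgdh 2 of 4 probe sets, and for Shmt2 1 of 4, were higher at 4 h than at 2 h, so their order rested on the probe set chosen. The 4 h array was hybridised 94 minutes after the 0 h array and the 2 h array 1 minute after it, and hybridisation time and treatment time cannot be told apart for the 4 h array. Each array also had its own fluidics module (3, 4 and 1 at 0, 2 and 4 h), so module and treatment time cannot be told apart for any array.

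The set was also placed beside genes of like signal, because brighter genes had higher log2 ratios on these arrays. Among the brightest 10% of genes, 973 in number, the median log2 ratio was 0.25 at 2 h and 0.36 at 4 h, and 85.6% were higher at 4 h than at 0 h. Psat1, Phgdh, Shmt2, Mthfd2 and Asns belong to that group. Psat1 lay above 91.2% of it at 4 h, whereas Phgdh lay above 38.2%, Shmt2 above 35.7%, Mthfd2 above 41.4% and Asns above 29.3%. At 2 h Psat1 lay above 88.8% of it, and Mthfd2 above 7.81%. Psph and Shmt1 were the dimmest. The 973 genes of their signal group had median log2 ratios of -0.03 at 2 h and -0.07 at 4 h. Psph and Shmt1 lay above 96.0% and 97.2% of that group at 2 h and above 70.0% and 80.2% at 4 h. All these placements rest on the probe set that stands for the gene. The mean over the 4 probe sets of Shmt1 was lower, at 0.21 at 2 h and -0.16 at 4 h. That over the 2 of Asns was higher, at 0.36 and 0.56. Of all 3288 genes at least as bright as the dimmest of the 9, 69.3% were higher at 2 h than at 0 h and 67.7% at 4 h, with medians of 0.15 and 0.22.

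**Figure D3:**
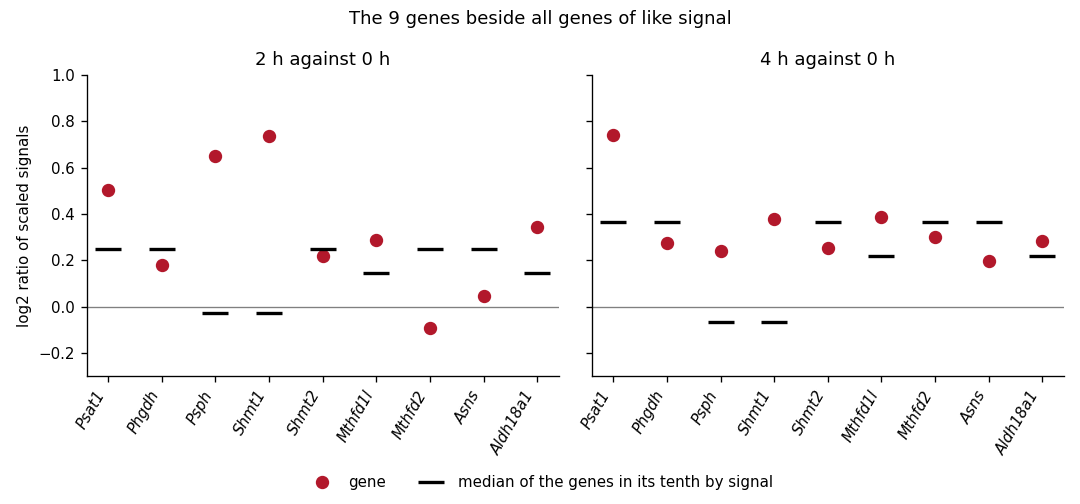
Log2 ratio of scaled signals of each of the 9 genes (points) and median log2 ratio of the genes in the same 10% of genes ordered by signal (bars), 2 h against 0 h and 4 h against 0 h. Psat1 is above its bar at both times, Psph and Shmt1 stand furthest above theirs at 2 h, and Phgdh, Shmt2, Mthfd2 and Asns are below theirs. Each point is the probe set that stands for the gene. The mean over the 4 probe sets of Shmt1 was 0.21 at 2 h and -0.16 at 4 h.

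Scaling moved the whole set. For Psat1 the 4 h ratio was 0.74 in the main scaling, 1.04 with equal medians, 0.37 with quantile normalization and 0.42 with the spike-ins, above 0 and above the median of all genes in each. For Asns it was 0.20, 0.50, -0.21 and -0.12 in the same order. Phgdh, Shmt2 and Mthfd2 were also below 0 in both of the last scalings, at -0.12, -0.16 and -0.03 with quantile normalization and at -0.05, -0.07 and -0.02 with the spike-ins. Psph and Aldh18a1 were below 0 with the spike-ins, at -0.08 and -0.04. The median of all genes at 4 h was -0.07, 0.24, 0.05 and -0.39 in these scalings. Relative to it, the median of the 9 genes was 0.35 in the main scaling, 0.35 with equal medians, 0.13 with quantile normalization and 0.35 with the spike-ins. The main, equal-median and spike-in scalings each multiply a whole array by 1 factor, so these values could hardly differ and are not separate evidence. With quantile normalization, 5 of 9 genes lay above the median of all genes at 4 h, against 9 of 9 in the main scaling.

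**Figure D4:**
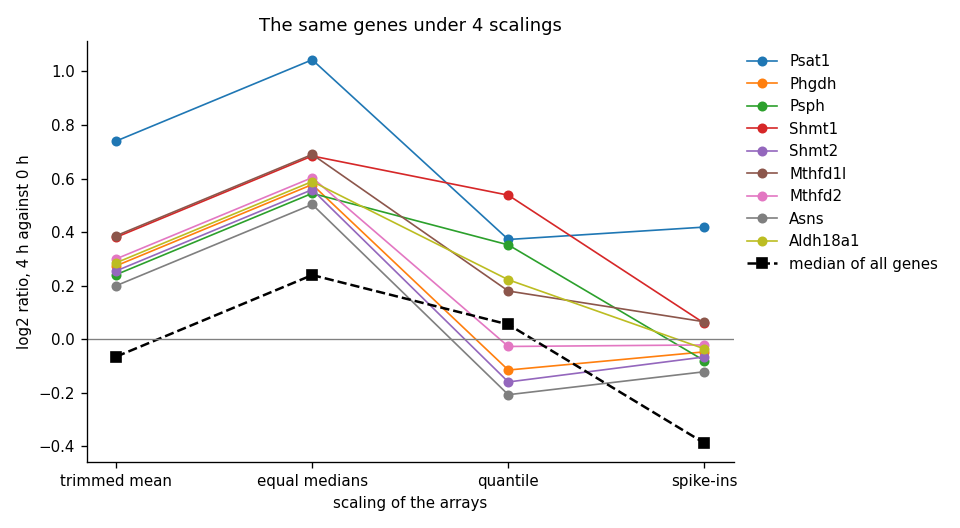
Log2 ratio at 4 h against 0 h of each of the 9 genes (coloured points, joined for each gene) and of the median of all genes (black squares) under 4 scalings of the arrays. Psat1 stays above 0 in all 4, and Asns is at -0.21 with quantile normalization and -0.12 with the spike-ins.

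Most genes in the list named ATF4 and its regulators had lower signals over the same hours. The list also holds other factors, such as Ddit3, Trib3 and Myc, so its counts do not describe regulators of ATF4 alone. Atf4 itself had signals of 10918, 4477 and 1871 at 0, 2 and 4 h, 5.83-fold lower at 4 h than at 0 h (log2 ratio -2.54 ± 0.42, SD over 2 probe sets). Among 15 passing genes of this list, the signal was at least 2-fold below 0 h for 7 at 2 h, against 5.69% of all genes, and for 8 at 4 h, against 14.4%. It was 2-fold above 0 h for none, against 1.41% and 2.32% of all genes. The median log2 ratio was -0.93 at 2 h and -1.38 at 4 h. Cebpg, a C/EBP partner that binds with ATF4, had signals of 1082, 572 and 369, and Cebpb, a further C/EBP factor, 2395, 579 and 122. Ddit3, the CHOP factor, had log2 ratios of -1.04 and -1.38, and Trib3, a pseudokinase that restrains ATF4, -0.93 ± 0.11 and -1.44 ± 1.00 (SD over 2 probe sets). Atf3, a stress-induced factor with signals of 306, 108 and 70.4, did not pass the filter. Myc, a transcription factor that also acts on serine and folate enzyme genes, had signals of 1613, 109 and 128. At 4 h, 4 of the 15 genes lay above 0 h, against 46.1% of all genes. Among them were Atf5, a relative of ATF4, at 0.26 and 0.26, and Eif2ak2, a kinase of the stress response, at -0.09 and 0.30. The others were Eif2ak4 and Eif2ak1, at 0.22 and 0.01 at 4 h, while Eif2ak3 was at -0.78.

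Other ATF4 target genes were split. At 2 h, 5 of the 26 that passed lay at least 2-fold below 0 h, against 5.69% of all genes, and 1 at least 2-fold above it, against 1.41%. At 4 h, 6 lay below by that size, against 14.4%, and none above, against 2.32%. With equal medians 4 lay below and 5 above at 4 h, so the balance depended on scaling. The median was 0.10 at 2 h and 0.25 at 4 h. Slc38a2, a neutral amino acid transporter, had signals of 4383, 578 and 237, and Herpud1, of endoplasmic reticulum-associated degradation, 1729, 489 and 218. At the other end stood Slc7a11, the cystine transporter, with signals of 231, 298 and 458 (log2 ratio 0.99 at 4 h), and Nars, asparaginyl-tRNA synthetase, with 7454, 9502 and 12737 (0.77 ± 0.02, SD over 2 probe sets). The 9 synthesis genes, at 0.20 to 0.74, lay between these ends. This list shares Gpt2 and Cth with the metabolic lists described next.

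Counts in the neighbouring metabolic lists are to be set beside the same shares, 14.4% of all genes at least 2-fold lower and 2.32% higher at 4 h. Of 9 further serine and glycine genes, 1 lay at least 2-fold below 0 h at 4 h and none 2-fold above, with a median of 0.14. Dld and Gcsh, parts of the glycine cleavage system, had log2 ratios of 0.55 and 0.53. Srr, serine racemase, was at -1.04 ± 0.61 (SD over 3 probe sets) and Slc25a32, the mitochondrial folate carrier, at -0.74 ± 0.27 (SD over 2 probe sets). Of 16 folate and methyl cycle genes, 3 lay at least 2-fold below 0 h at 4 h and none 2-fold above, with a median of 0.23. Mtfmt, which formylates mitochondrial initiator tRNA with a folate carbon unit, had signals of 556, 394 and 105, and Mat2b, a regulatory subunit of methionine adenosyltransferase, 1631, 1184 and 488. Ggh, gamma-glutamyl hydrolase, stood at 0.79, and Aldh1l2, the mitochondrial formyltetrahydrofolate dehydrogenase, at 0.64.

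None of 12 purine synthesis enzymes, which consume the folate carbon units, differed 2-fold at 2 h or 4 h. Their 4 h median was 0.24, from Ppat, the amidotransferase that opens the pathway, at -0.24 ± 0.14 (SD over 2 probe sets) to Prps2, a phosphoribosyl pyrophosphate synthetase, at 0.63 ± 0.15 (SD over 3 probe sets). Atic, of the last steps, was at -0.13 and Adsl, adenylosuccinate lyase, at 0.53. Among 13 genes of asparagine, aspartate, glutamate and proline metabolism, 1 was at least 2-fold higher at 4 h and none 2-fold lower, with a median of 0.37. That gene was Glul, glutamine synthetase, with signals of 364, 690 and 828 (log2 ratio 1.18 ± 0.41, SD over 2 probe sets). Asrgl1, an asparaginase-like enzyme, was at 0.68 ± 0.66 (SD over 2 probe sets). Lowest were Cad, of pyrimidine synthesis, at -0.45 ± 0.18 (SD over 3 probe sets) and Gpt2, a mitochondrial alanine aminotransferase, at -0.32 ± 0.50 (SD over 4 probe sets).

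**Figure D5:**
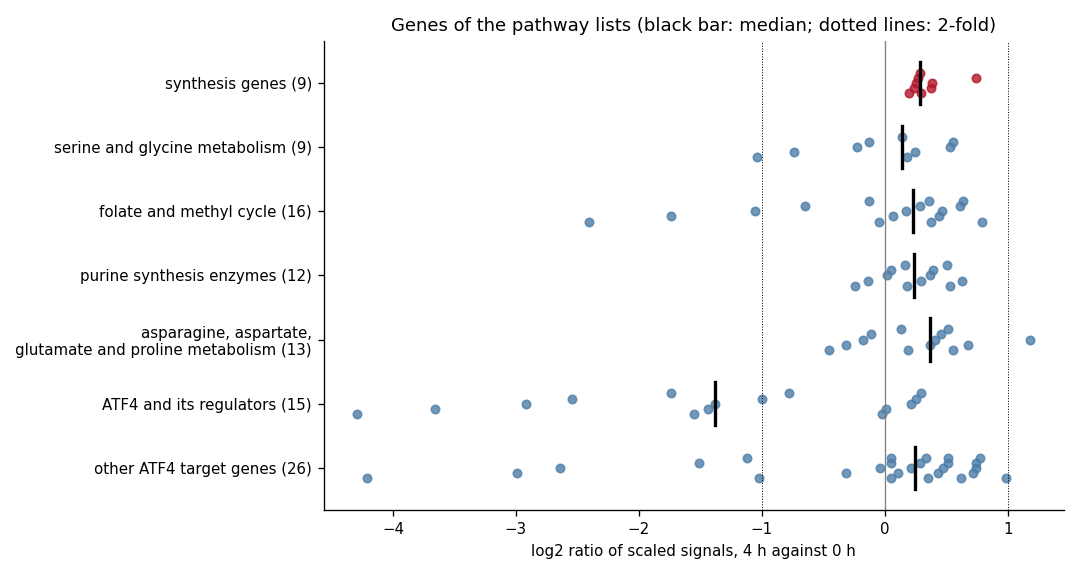
Log2 ratio of scaled signals at 4 h against 0 h for each passing gene of the set (red) and of 6 related lists (blue), with the number of genes in brackets, a black bar at the median and dotted lines at 2-fold. The 9 synthesis genes lie between 0.20 and 0.74, and 8 of the 15 genes of the ATF4 list lie below the lower dotted line.

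Genes with a time course like that of the extreme members were sought over both log2 ratios against 0 h, among 6875 genes with a mean signal of at least 400. Nearest to Psat1 were Atp6v1g1, Aldh2 and Atp5j, at distances of 0.018, 0.024 and 0.027, and 101 genes lay within 0.1. Nearest to Asns were Crtap, Ptcd3 and Ube2k, at 0.0029, 0.0075 and 0.013, with 222 genes within 0.1. Asns was the member with the lowest 4 h ratio only on the probe set that stands for it, at 0.20. Its other probe set was at 0.93 and the mean over both was 0.56. By the mean over probe sets the lowest member was Shmt1, at -0.16, so the choice of Asns rested on the probe set. With 3 arrays many genes share such a course.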

How the data were processed

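The files hold signal intensity per probe set, deposited on a linear scale and already scaled by the authors, as the 2% trimmed mean was 150.0 for every array. The submitters' processing notes name GCOS 1.4, with a summary method not given in the sources used here. Array design, fluidics module and order of hybridisation were read per the file headers. For this work the trimmed mean was set to 500, a floor of 100 was applied and values were turned to log2. Probe sets with a mean log2 signal at or above that of 200 were kept, and the brightest kept probe set stood for its gene. Symbols follow RefSeq (GRCm38.p6), matched by Entrez ID. The SD printed is over a gene's kept probe sets, does not cover variation between cultures or arrays, and can hold differences between transcripts. The small number of arrays limits precision, and no test was made. Both the members and the 6 lists were chosen with earlier results of these data known. Named were all members, the 2 highest and 2 lowest kept genes of each list at 4 h, and 8 regulators. Eif2ak1, Eif2ak3 and Eif2ak4 were named as well, and so were the 3 genes nearest to each of the highest and lowest members. The counting was tested on simulated data. Alternatives were 3 other scalings, other floors and filters, an offset, the mean over probe sets, and dropping suffixed probe sets, whose names end in _x_at, _s_at or _a_at. Tools were Python 3.11.15, numpy 2.4.6, pandas 2.3.3 and matplotlib 3.10.9.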

Additional observations from a re-analysis of the deposited data

How the results depend on the processing

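The 9 measured genes gave 0 at least 2-fold higher or lower under all 10 alternatives in all 3 comparisons, except 1 higher at 4 h against 0 h (Psat1) with equal medians. Of 261 recomputed log2 ratios of single genes, 255 moved by less than the spread between probe sets of these genes. The others were Shmt1 and Shmt2 with the mean over probe sets (Shmt1 at 0.21 for 2 h and -0.16 for 4 h against 0 h, Shmt2 at -0.25 for 4 h against 2 h) and Aldh18a1 with suffixed probe sets left out (-0.38 and -0.28 against 0 h, and 0.10 for 4 h against 2 h). That choice leaves 6 of the 9 genes, without Psat1, Phgdh and Mthfd1l. The 255 include ratios that changed sign, because the spread was 0.43 at 4 h against 0 h. In that comparison, quantile normalization took Asns from 0.20 to -0.21 and Shmt2 from 0.25 to -0.16. Counts of the lists at least 2-fold from 0 h that moved by more than 1.5 times were the following. Serine and glycine genes lower at 4 h, 1 in the main setting, were 0 with equal medians, quantile normalization, the offset, the mean over probe sets and suffixed probe sets left out, 2 with spike-ins and 3 with no filter. Those lower at 2 h, 1 in the main setting, were 2 with no filter, and 0 with the mean and with suffixed ones left out. For folate genes, 1 was higher at 4 h with equal medians (main 0), 1 lower at 2 h with spike-ins (main 0) and 1 lower at 4 h with a filter of 400 (main 3). For asparagine to proline genes lower at 2 h (main 1), equal medians, quantile normalization and the mean gave 0. Higher at 2 h (main 0), equal medians and quantile normalization gave 1. Higher at 4 h (main 1), quantile normalization gave 2, and spike-ins, the mean and suffixed ones left out gave 0. For other ATF4 targets higher at 4 h (main 0), equal medians gave 5 and quantile normalization 1, against 7.46% and 4.43% of all genes. Higher at 2 h (main 1), spike-ins, the offset, the filter of 400 and the mean gave 0. ATF4 and its regulators lower at 4 h (main 8) were 5 with suffixed ones left out. The cause of these moves was not tested. No paired analysis was possible because each time point had 1 array, and for the same reason no array could be left out. Signals near the floor limit how large a lower ratio can be.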
